A study of Macaca mulatta with 24 samples.

Results

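The 10 genes described here, ERN1, ATF6, ATF4, XBP1, DDIT3, TRIB3, CHAC1, SESN2, ASNS and PSAT1, belong to the endoplasmic reticulum (ER) stress response and the integrated stress response. They were chosen by symbol, and all 10 were found among the 17208 gene symbols measured by RNA-Seq in the nucleus accumbens core (NAcc) of rhesus macaques. Levels were taken as TPM, a measure of transcript abundance that corrects for gene length, because they sum to about 1000000 in each animal. The deposited table is named as normalized counts, however, and the gene lengths used are not given in the sources used here, so the order of levels between genes rests on that reading. Of the 10 genes, 8 averaged 1 TPM or more across the 24 animals, as did 13637 genes in all, and ERN1 and TRIB3 lay below it. The depth of each library is unknown, because TPM does not keep it.

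In the unfolded protein response, the ER membrane proteins IRE1 (from ERN1), PERK and ATF6 respond to unfolded proteins in the ER lumen. IRE1 splices the XBP1 transcript and ATF6 is cut to release a transcription factor, and the factors made in these ways act on genes for chaperones and for ER-associated degradation. In the integrated stress response, kinases phosphorylate the initiation factor eIF2, which slows general translation but favors translation of ATF4, a transcription factor for genes of amino acid supply and stress. Translation, splicing and cleavage are not seen in a gene's total transcript level.

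Samples came from 24 unrelated adult male animals, comprising 8 controls, 8 low or binge drinkers (LD*, all given as LD in the labels), 4 heavy drinkers (HD) and 4 very heavy drinkers (VHD), with HD and VHD pooled as HD*. Drinkers had open access to ethanol and water, and average daily intake was 0.47 to 2.07 g/kg in LD* and 2.74 to 3.78 g/kg in HD*. HD animals took 2.74 to 3.09 g/kg and VHD animals 3.09 to 3.78 g/kg. Controls shared the rooms and procedures of the drinkers of their cohort, induction included, but were never offered ethanol. Maltose dextrin made up for the calories that drinkers took as ethanol. Tissue was taken at the end of open access with no imposed abstinence. The animals sorted themselves into drinking groups by their own intake, all were male, and the samples are bulk tissue of many cell types. Cohort 5 held 3 controls and 4 HD*, cohort 7a held 2 controls, 3 LD* and 4 HD*, cohort 7b held 3 controls and 3 LD*, and cohort 4 held 2 LD*. HD* and LD* therefore shared only cohort 7a.

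Of the 24 libraries, 4 stood apart in composition. In Control replicate 8, LD replicate 5, VHD replicate 3 and VHD replicate 4, the 500 most abundant genes held 53.5%, 53.8%, 54.5% and 58.3% of TPM, against 43.9% to 49.8% in the other 20. ASNS was 57.0, 46.4, 50.8 and 37.7 TPM in these 4 libraries, below the lowest of the other 20 (71.1 TPM). ATF6 was 10.4, 8.90, 8.80 and 6.11 TPM in them, also below the lowest of the others (11.4 TPM). XBP1 was 53.3, 59.2, 63.0 and 46.9 TPM in the 4 and 55.3 to 93.4 TPM in the others, so that its ranges overlapped. ATF4 in the 4 libraries, 249.5 to 311 TPM, lay inside the range of the others, 191 to 329.6 TPM. Many of the comparisons below are also given without these 4 libraries.

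Markers of the dissected region were present. All 10 of the 10 listed striatal projection neuron markers were found, none was listed at 0 in any animal, and PENK was the most abundant (2638 TPM). Their summed level had a lowest, median and highest value of 775, 7091 and 12125 TPM in controls, 3579, 7110 and 10719 TPM in LD*, and 3348, 7932 and 11159 TPM in HD*. Control replicate 6, with the striatal sum of 775 TPM, also held the highest oligodendrocyte sum (9756 TPM) and astrocyte sum (8022 TPM). In that animal CHAC1 was 24.1 TPM, its highest value in any library, SESN2 was 13.8 TPM, also its highest, and ATF4 was 314 TPM. In bulk tissue, fewer cells of a type and less RNA per cell cannot be told apart.

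The genes differed far more in level from each other than between groups. ATF4, the central transcription factor of the integrated stress response, was the most abundant at 248.7 ± 39.99 TPM (SD, n = 24) and exceeded 95.7% of all genes. PSAT1, a serine synthesis enzyme, followed at 171 ± 35.8 TPM, and ASNS, which makes asparagine, at 79.3 ± 17.7 TPM. XBP1 was at 75.6 ± 12.9 TPM and DDIT3 at 64.0 ± 7.02 TPM. ATF6, SESN2 and CHAC1 formed a middle tier at 14.2 ± 3.19, 10.4 ± 2.21 and 9.30 ± 4.23 TPM. ERN1 averaged 0.887 ± 0.222 TPM and TRIB3 0.107 ± 0.105 TPM, the latter above 9.97% of genes. ATF4 exceeded PSAT1, and PSAT1 exceeded ASNS, in 24 of 24 animals. Neighbors that did not separate beyond their spread were ASNS and XBP1, with ASNS higher in 14 of 24 animals, XBP1 and DDIT3 (19 of 24), ATF6 and SESN2 (21 of 24), and SESN2 and CHAC1 (17 of 24). Among these transcripts DDIT3 varied least, with a coefficient of variation of 11.0%, and CHAC1 (45.5%) and TRIB3 (98.7%) varied most.

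**Figure D1:**
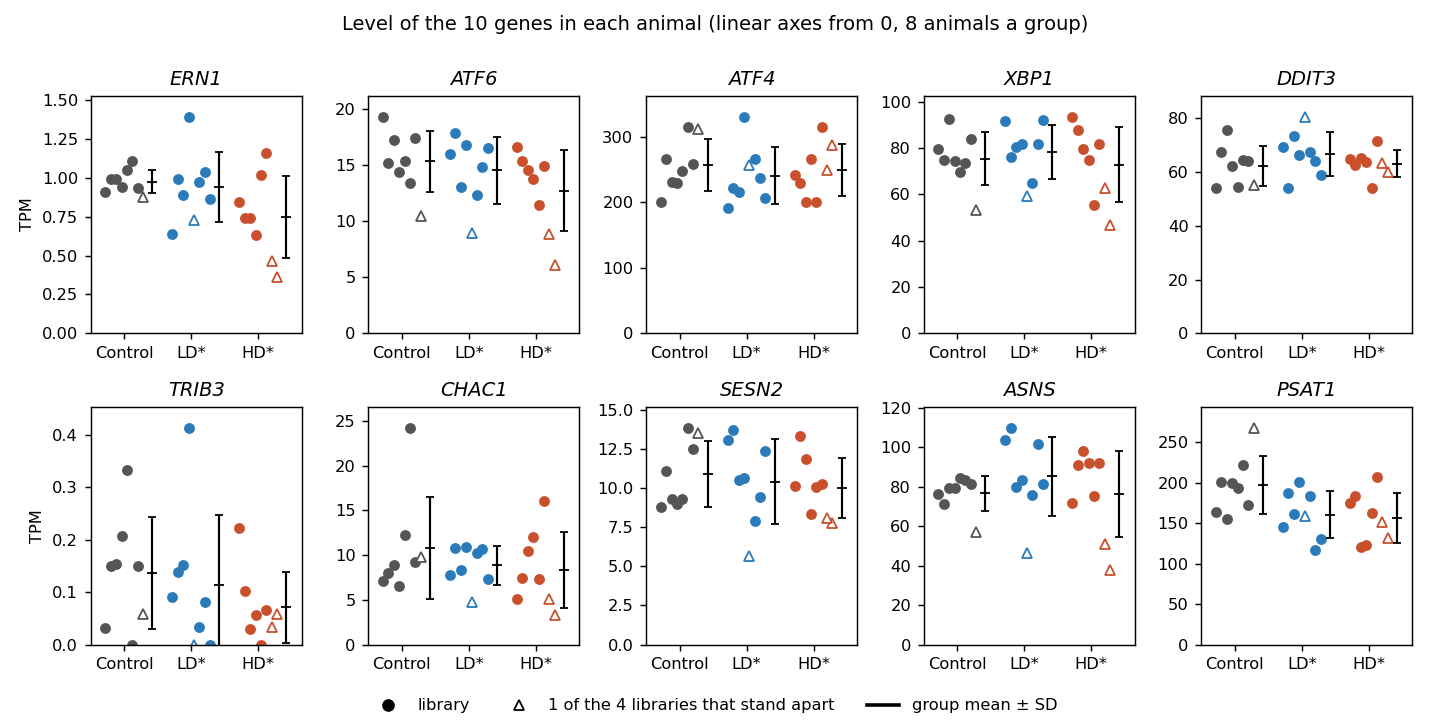
Level of each of the 10 genes in every animal, in TPM on linear axes from 0, by group (grey Control, blue LD*, red HD*; 8 animals each), with the mean and SD as a line and bars and the 4 libraries that stand apart as open triangles. The groups overlap for every gene, the open triangles hold the lowest ASNS and ATF6 values, and the SD bar of TRIB3 in LD* is drawn no lower than 0.

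The first question was whether levels in drinkers differed from those in controls. None of the 8 tested genes passed an adjusted p of 0.05 in limma in HD* against controls, LD* against controls or HD* against LD*, and neither did any of the 13637 genes tested (0% in each). These counts hold for limma on log2(TPM + 1). From a model of read counts, the paper reports differentially expressed genes in HD* against controls and against LD*, but none in LD* against controls. It also reports EIF2 signaling as upregulated in HD*. Whether the change of model accounts for the different counts was not tested. At an unadjusted p under 0.05, 1 of the 8 genes was called in HD* against controls (PSAT1), where 775 of all genes were (5.68%). In LD* against controls it was again 1 of the 8, PSAT1, with 387 of all genes (2.84%), and in HD* against LD* it was 0 of the 8, with 147 of all genes (1.08%). The controls and the drinkers are shared among these comparisons, which are therefore not independent. In HD* against controls the median log2 fold change was -0.12 over all genes and -0.092 over the 8, and rescaling to a trimmed mean moved the former to -0.0067. The same rescaling changed the unadjusted calls over all genes from 54 higher and 721 lower to 263 higher and 235 lower. Changes of the 10 genes in HD* against controls are therefore also given relative to the median of all genes or after rescaling. In LD* against controls the medians were -0.025 over all genes and -0.082 over the 8, and in HD* against LD* they were -0.084 and -0.10. Rescaling moved the unadjusted calls from 40 higher and 347 lower to 136 and 248 in LD* against controls, and from 45 and 102 to 109 and 74 in HD* against LD*.

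The sensors had lower medians in HD* than in controls, without passing the test across all genes. ERN1, which encodes the kinase and endoribonuclease IRE1, had a lowest, median and highest level of 0.877, 0.966 and 1.11 TPM in controls, 0.641, 0.932 and 1.39 TPM in LD*, and 0.363, 0.743 and 1.16 TPM in HD*. Its level lay below every control in 6 of 8 HD* animals, and in VHD replicate 2 it lay above every control. ERN1 differed between HD* and controls by -0.19 on the log2(TPM + 1) scale (exact permutation p = 0.0280, unadjusted, 1 of 8 such tests of ERN1 and TRIB3). Benjamini-Hochberg adjustment over these 8 tests brought the exact permutation p of ERN1 to 0.224. In limma with no filter on low levels, over all 17208 genes, its adjusted p was 0.718. After rescaling the ERN1 difference was -0.15 (exact permutation p = 0.0314). It no longer passed without Control replicate 5 (-0.18, exact permutation p = 0.0507) or 6 (-0.18, exact permutation p = 0.0552), or without VHD replicate 3 (-0.16, exact permutation p = 0.0507) or 4 (-0.14, exact permutation p = 0.0531). Differences of ERN1 in LD* against controls (exact permutation p = 0.599) and in HD* against LD* (exact permutation p = 0.127) did not pass, the latter reaching -0.20 (exact permutation p = 0.0448) without VHD replicate 2. The lowest ERN1 values, 0.466 and 0.363 TPM, came from VHD replicates 3 and 4, which are among the 4 libraries standing apart. With these 4 left out, ERN1 differed between HD* and controls by -0.11 (exact permutation p = 0.104) and lay below every control in 4 of 6 HD* animals. Within cohort 5, ERN1 was 0.967 TPM in controls and 0.940 TPM in HD* (exact permutation p = 0.800), and within cohort 7a it was 0.907 and 0.552 TPM with no overlap (exact permutation p = 0.133, where 0.0667 is the smallest possible). HD* and LD* of cohort 7a, at 0.552 and 0.958 TPM, did not overlap for ERN1 either (exact permutation p = 0.0571, where 0.0286 is the smallest possible).

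ATF6, the sensor that becomes a transcription factor after cleavage, was 10.4, 15.3 and 19.2 TPM (lowest, median, highest) in controls, 8.90, 15.4 and 17.8 TPM in LD*, and 6.11, 14.2 and 16.6 TPM in HD*. Below the lowest control lay 2 of 8 HD* animals, both from libraries that stand apart. Its log2 fold change in HD* against controls was -0.29 (SE 0.17, 95% interval -0.64 to 0.061, adjusted p = 0.706), or -0.17 relative to the median of all genes. Without the 4 libraries it was -0.14. With 1 animal left out in turn it ran from -0.36 without Control replicate 8, at an unadjusted p under 0.05, to -0.16 without VHD replicate 4. For LD* it was -0.081 (95% interval -0.43 to 0.27), reversing to 0.0081 without LD replicate 5 and at -0.062 without all 4 libraries.

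Among the transcription factors, group medians differed little. ATF4 was 199.7, 252 and 314 TPM in controls, 191, 229 and 329.6 TPM in LD*, and 200.4, 246 and 314 TPM in HD*. The 3 ranges nearly coincided, and the log2 fold change in HD* against controls, -0.050 (95% interval -0.29 to 0.19), reversed to 0.077 after rescaling and was -0.049 without the 4 libraries. XBP1, which encodes the factor made by IRE1 splicing, was 53.3, 74.7 and 92.8 TPM in controls, 59.2, 81.1 and 92.1 TPM in LD*, and 46.9, 77.2 and 93.4 TPM in HD*. Its log2 fold change in HD* against controls was -0.068 (95% interval -0.34 to 0.21) and 0.057 after rescaling, a change of direction, and it was -0.0085 without the 4 libraries. Between LD* and controls XBP1 differed by 0.059 (95% interval -0.22 to 0.33), by -0.0093 without Control replicate 8, and by 0.046 without the 4 libraries. DDIT3 encodes CHOP, a factor known for its part in death after prolonged ER stress. Its level was 54.0, 63.3 and 75.7 TPM in controls, 53.9, 66.9 and 80.4 TPM in LD*, and 54.1, 63.4 and 71.4 TPM in HD*. No HD* animal lay outside the control range of DDIT3. The log2 fold change of DDIT3 was 0.0265 in HD* (95% interval -0.15 to 0.21, reversing to -0.0009 without Control replicate 1) and 0.099 in LD* (95% interval -0.081 to 0.28). In HD* it was 0.15 after rescaling and 0.15 relative to the median of all genes, and rescaling did not bring it to an unadjusted p under 0.05. Both were smaller without the 4 libraries, at 0.014 and 0.036. In cohort 7b, DDIT3 averaged 60.4 TPM in 3 controls and 73.4 TPM in 3 LD* without overlap (exact permutation p = 0.10, the smallest possible), and in cohort 7a 59.6 and 63.5 TPM with overlap (exact permutation p = 0.500).

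TRIB3, CHAC1 and SESN2, which are target genes, were lower in level than ATF4, XBP1 and DDIT3. TRIB3, a pseudokinase gene induced by ATF4 and CHOP, was 0, 0.150 and 0.333 TPM in controls, 0, 0.0854 and 0.413 TPM in LD*, and 0, 0.0565 and 0.223 TPM in HD*. It was listed at 0 in 1 control, 2 LD* and 1 HD* animal, and HD* lay within the control range. It differed between HD* and controls by -0.082 on the log2(TPM + 1) scale (exact permutation p = 0.174), or -0.070 after rescaling (exact permutation p = 0.207). In cohort 7a the TRIB3 mean was 0.105 TPM over 2 controls against 0.0445 TPM over 4 HD* animals, without overlap (exact permutation p = 0.0667, the smallest possible), and in cohort 5 0.112 and 0.0976 TPM with overlap (exact permutation p = 0.800). CHAC1, whose product breaks down glutathione, was 6.54, 9.07 and 24.1 TPM in controls, 4.77, 9.27 and 10.9 TPM in LD*, and 3.33, 7.35 and 16.1 TPM in HD*. Below every control were 3 of 8 HD* animals, and the control at 24.1 TPM was the animal with few striatal and many glial transcripts. The log2 fold change of CHAC1 in HD* against controls was -0.35 (SE 0.25, 95% interval -0.87 to 0.17, adjusted p = 0.706), -0.23 relative to the median of all genes, -0.18 without that control, and -0.11 without the 4 libraries. SESN2, a brake on mTORC1 signaling that senses leucine, was 8.79, 10.2 and 13.8 TPM in controls, 5.63, 10.6 and 13.7 TPM in LD*, and 7.79, 10.1 and 13.3 TPM in HD*. Below every control were 3 of 8 HD* and 2 of 8 LD* animals, and none lay above the highest control. The SESN2 log2 fold change in HD* against controls, -0.12 (95% interval -0.43 to 0.20), was 0.0054 relative to the median of all genes and 0.021 without the 4 libraries.

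Of the amino acid synthesis genes, PSAT1 was lower in both drinking groups before adjustment. PSAT1 was 155, 196 and 267 TPM in controls, 116, 160 and 200.5 TPM in LD*, and 120, 157 and 207 TPM in HD*. In each drinking group 7 of 8 animals were below the control median, and 4 of 8 HD* and 3 of 8 LD* animals were below every control. The log2 fold change in HD* against controls was -0.33 (SE 0.13, 95% interval -0.60 to -0.058, adjusted p = 0.706), or -0.21 relative to the median of all genes. For LD* it was -0.30 (SE 0.13, 95% interval -0.57 to -0.022, adjusted p = 1.00). Neither was at an unadjusted p under 0.05 after rescaling (-0.21 in HD*, adjusted p = 0.901, and -0.26 in LD*, adjusted p = 0.994), without the 4 libraries (-0.22, adjusted p = 0.996, and -0.23, adjusted p = 0.892) or with cohort in the fit (-0.26, adjusted p = 0.766, and -0.28, adjusted p = 1.00). The same held without Control replicate 8 (-0.27 in HD* and -0.23 in LD*), and for LD* also without Control replicate 2, 4 or 6 (-0.29, -0.29 and -0.27) or LD replicate 1, 7 or 8 (-0.28, -0.23 and -0.26). For HD* it held as well with library weights estimated from the data (-0.24, adjusted p = 0.519) and in cohorts 5 and 7a alone (-0.29, adjusted p = 0.920). For LD*, PSAT1 was at an unadjusted p under 0.05 with library weights (-0.30, adjusted p = 0.338) and in cohorts 7a and 7b alone (-0.42, adjusted p = 0.959). PSAT1 did not separate HD* from LD* (-0.036, 95% interval -0.31 to 0.24, with the direction reversed to 0.053 by rescaling and 0.0081 without the 4 libraries). The highest PSAT1 level, 267 TPM, was in Control replicate 8, a library that stands apart, and the next, 222 TPM, in Control replicate 6.

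ASNS, the other synthesis gene, was 57.0, 79.4 and 84.4 TPM in controls, 46.4, 82.3 and 109.5 TPM in LD*, and 37.7, 83.1 and 98.1 TPM in HD*. Drinkers spread to both sides of the controls, with 2 HD* animals below the lowest control and 4 above the highest. Its log2 fold change was -0.062 in HD* (95% interval -0.43 to 0.30), reversing to 0.063 after rescaling and 0.12 without the 4 libraries, and 0.12 in LD* (95% interval -0.25 to 0.49), or 0.18 without the 4 libraries. In cohorts 7a and 7b alone the LD* direction reversed. The 2 LD* animals of cohort 4, which held no controls, had the highest ASNS levels of all animals, 109.5 and 103.7 TPM. ASNS averaged 69.2 TPM in controls and 86.3 TPM in LD* of cohort 7a, and 82.4 and 69.8 TPM in cohort 7b, with overlap in both.

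**Figure D2:**
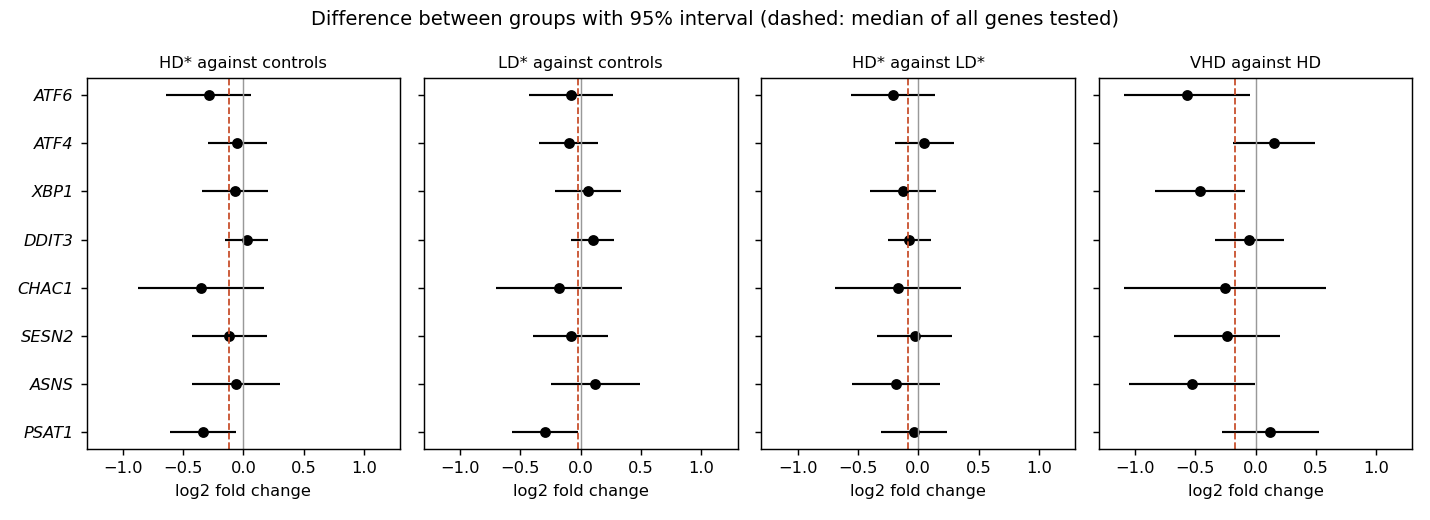
Log2 fold change on the log2(TPM + 1) scale (x axis) of the 8 tested genes in each comparison, with 95% intervals from limma as bars and the median of all genes as a dashed line. For HD* against controls only the PSAT1 interval, -0.60 to -0.058, leaves out 0, although no gene passed an adjusted p of 0.05, and ATF4, XBP1 and ASNS change direction in that comparison after rescaling.

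Very heavy drinkers were next compared with heavy drinkers, within HD*. XBP1, ATF6 and ASNS were lower in VHD before adjustment, and none of the 8 genes passed an adjusted p of 0.05, in limma, where 1997 of 13637 genes did (14.6%). At an unadjusted p under 0.05 it was 3 of the 8, with 4457 of all genes (32.7%), so the share among the 8 was near that of the whole table. Over all genes 441 calls were higher and 1556 lower in VHD, and after rescaling 1170 were higher and 1411 lower. XBP1 was 93.4, 87.7, 79.6 and 74.8 TPM in the 4 HD animals and 55.3, 81.8, 63.0 and 46.9 TPM in the 4 VHD animals. All 4 VHD values of XBP1 lay below the HD median, but VHD replicate 2 was inside the HD range. The log2 fold change of XBP1 was -0.46 (SE 0.17, 95% interval -0.84 to -0.085, adjusted p = 0.0885), or -0.29 relative to the median of all genes, which was -0.17 and became 0.0058 after rescaling.

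ATF6 was 16.6, 15.3, 14.6 and 13.8 TPM in HD and 11.4, 14.9, 8.80 and 6.11 TPM in VHD. Again VHD replicate 2 alone lay within the HD range, and the log2 fold change was -0.57 (SE 0.24, 95% interval -1.09 to -0.043, adjusted p = 0.126), or -0.39 relative to the median of all genes. ASNS was 71.8, 90.8, 98.1 and 92.1 TPM in HD and 75.4, 92.1, 50.8 and 37.7 TPM in VHD. The low ASNS values were those of VHD replicates 3 and 4, both in libraries that stand apart. ASNS had a log2 fold change of -0.53 (SE 0.24, 95% interval -1.05 to -0.0042, adjusted p = 0.150), or -0.35 relative to the median of all genes. Leaving out the 4 libraries leaves 4 HD animals, of cohorts 5 and 7a, and 2 VHD animals, both of cohort 5. Group and cohort are therefore mixed in each comparison of VHD with HD made without these libraries. The values were then -0.31 for XBP1, -0.19 for ATF6 and -0.0715 for ASNS. None of the 3 was then at an unadjusted p under 0.05 (adjusted p = 0.291, 0.481 and 0.797), where 3559 of all genes were (26.1%), and 606 of all genes passed the adjusted p (4.44%). Leaving out 1 animal also ended calls at an unadjusted p under 0.05. For XBP1 this was so without VHD replicate 1 (-0.42) or HD replicate 1 or 2 (-0.41 and -0.44), and for ATF6 without any 1 of HD replicates 1 to 4 (-0.52, -0.56, -0.58 and -0.61) or VHD replicate 3 or 4 (-0.52 and -0.36). For ASNS it was so without HD replicate 2, 3 or 4 (-0.51, -0.47 and -0.50) or VHD replicate 3 or 4 (-0.45 and -0.31). With no filter on low levels, ATF6 (-0.57) and ASNS (-0.53) also missed an unadjusted p of 0.05. After rescaling XBP1 (-0.26, adjusted p = 0.146) and ASNS (-0.33, adjusted p = 0.168) were no longer at an unadjusted p under 0.05 and ATF6 (-0.38, adjusted p = 0.0768) was, with 5010 of all genes (36.7%). Without VHD replicate 2 all 3 genes were called, where 4651 of all genes were (34.1%), with log2 fold changes of -0.60 (adjusted p = 0.0104), -0.75 (adjusted p = 0.0168) and -0.73 (adjusted p = 0.0210). With library weights estimated from the data, 4 of the 8 genes were called, ATF6 (-0.68, adjusted p = 0.000843), XBP1 (-0.43, adjusted p = 0.00362), ASNS (-0.74, adjusted p = 0.000567) and SESN2 (-0.40, adjusted p = 0.0451), where 7613 of all genes were (55.8%).

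ATF4 and PSAT1 lay on the other side of the median in VHD. ATF4 was 242, 229, 200.6 and 265 TPM in HD and 200.4, 314, 249.5 and 287 TPM in VHD, with a log2 fold change of 0.15 (95% interval -0.19 to 0.49), or 0.33 relative to the median of all genes. PSAT1 was 175, 183, 120 and 123 TPM in HD and 163, 207, 152 and 131 TPM in VHD, with 0.12 (95% interval -0.28 to 0.52), or 0.30 relative to the median. Groups overlapped for both. The adjusted p of ATF4 in limma was 0.528. The paper, in its own analysis of these animals, reports ATF4 expression as significantly higher in VHD than in HD. Why the outcomes for ATF4 differ was not tested. After rescaling the values were 0.36 for ATF4 (adjusted p = 0.206) and 0.33 for PSAT1 (adjusted p = 0.154), without the 4 libraries 0.11 and 0.31, and with 1 animal left out in turn 0.0595 to 0.28 and 0.0017 to 0.23. The 2 VHD animals left without the 4 libraries are of cohort 5, where PSAT1 was 163 and 207 TPM in VHD and 175 and 183 TPM in HD. The HD animals of cohort 7a had 120 and 123 TPM. SESN2 differed by -0.24, CHAC1 by -0.25 and DDIT3 by -0.052, with intervals that span 0, and after rescaling SESN2 was at -0.050, CHAC1 at -0.086 and DDIT3, with its direction reversed, at 0.15. CHAC1 turned to 0.35 without the 4 libraries, where SESN2 was at -0.077, and with library weights it was at -0.56, at an unadjusted p under 0.05. In cohort 5 CHAC1 was 5.06 and 7.38 TPM in HD and 7.32 and 16.1 TPM in VHD. In cohort 7a it was 10.4 and 12.0 TPM in HD and 5.09 and 3.33 TPM in VHD. With both cohorts together, ERN1 (exact permutation p = 0.886) and TRIB3 (exact permutation p = 0.257) did not separate VHD from HD. Within cohorts, each with 2 HD and 2 VHD animals, ERN1 ran in opposite directions without overlap. In cohort 5 it was 0.842 and 0.743 TPM in HD and 1.02 and 1.16 TPM in VHD. In cohort 7a it was 0.742 and 0.635 TPM in HD and 0.466 and 0.363 TPM in VHD. The 2 VHD libraries of cohort 7a both stand apart. Groups this small often separate by chance, no test is given for them, and the share of all genes that do so is not given here. After rescaling ERN1 turned from -0.018 to 0.046. Without the 4 libraries it was 0.26 on the log2(TPM + 1) scale, with the 2 VHD animals above all 4 HD animals (exact permutation p = 0.0667, the smallest possible). These 2 VHD animals are of cohort 5, so group and cohort are mixed here as well.

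Cell type markers were read in the same comparison, where 14.6% of all genes were called. The summed striatal projection neuron markers were 10271 ± 752 TPM in HD and 5218 ± 1364 TPM in VHD, with 9 of 10 called, and the 4 pan-neuronal markers, led by SNAP25 (1302 TPM), were 2612 ± 290 and 1623 ± 551 TPM, with 2 called. The 6 astrocyte markers, led by GFAP (2099 TPM), were 2748 ± 665 TPM in HD and 4845 ± 1178 TPM in VHD, with 1 called. The 6 microglial markers, led by C1QB (134 TPM), were 313 ± 35.3 and 490 ± 124 TPM, with 3 called. For the 8 oligodendrocyte markers, sums were 3365 ± 853 and 3535 ± 1281 TPM with 1 called, and for the 8 immediate early genes, led by JUNB (71.5 TPM), 335 ± 60.2 and 199 ± 55.9 TPM with 3 called. Of 4 endothelial markers 3 were found, led by CLDN5 (56.7 TPM), with 84.0 ± 8.60 and 73.2 ± 23.3 TPM and 0 called in limma. No marker was listed at 0 in any animal. With the 4 libraries left out, 9 of the 10 striatal markers were called, 1 microglial marker and 1 immediate early gene, and none of the other lists, where 4.44% of all genes were called. The 2 VHD animals left there are both of cohort 5. The part of these cell type levels in the VHD values of XBP1, ATF6 and ASNS was not tested. The number of genes called in VHD against HD also moved with the libraries used, from 476 without VHD replicate 3 to 4651 without VHD replicate 2, and it was 681, 607 and 723 without HD replicates 2, 3 and 4, and 1094 without HD replicate 1. In a fit of all 4 groups it was 0.

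Whether daily intake tracked these genes among the 16 drinkers was asked with drinking group in the fit. None of the 8 genes passed an adjusted p of 0.05 in limma, and none of all genes did (0%). At an unadjusted p under 0.05 it was 1 of the 8, SESN2, with 1107 of all genes (8.12%). SESN2 had a slope of -0.41 log2 units per g/kg (SE 0.18, 95% interval -0.78 to -0.036, adjusted p = 0.498). The slope was -0.26 (adjusted p = 0.668) without the 4 libraries, -0.29 (adjusted p = 0.488) after rescaling and -0.34 (adjusted p = 0.602) without the 2 animals of cohort 4, none of them at an unadjusted p under 0.05. The same held without LD replicate 1 (-0.38), 2 (-0.45), 5 (-0.28) or 6 (-0.38) or HD replicate 3 (-0.39). In LD*, SESN2 ran from 13.7 TPM in the animal with the lowest intake to 5.63 TPM in the animal with the highest, LD replicate 5, whose library stands apart. Slopes of ASNS (-0.44, 95% interval -0.92 to 0.039), ATF6 (-0.40, 95% interval -0.84 to 0.041) and XBP1 (-0.29, 95% interval -0.63 to 0.053) had intervals that include 0, and the median over all genes was -0.11. ATF6 was at an unadjusted p under 0.05 after rescaling (-0.28, adjusted p = 0.488), and XBP1 without the 2 animals of cohort 4 (-0.69, adjusted p = 0.477) or LD replicate 2 alone (-0.64), as was ASNS without VHD replicate 1 (-0.55). Without LD replicate 2, 1 of all genes passed the adjusted p, none of the 8. The XBP1 slope was -0.16 after rescaling. The slopes without the 4 libraries were -0.23 for ASNS, -0.24 for ATF6 and -0.19 for XBP1.

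Correlations with intake inside each drinking group were computed for all 10 genes, 20 relations in all, and none passed Benjamini-Hochberg (BH) adjustment. The lowest exact permutation p came from ASNS in LD* (n = 8), with rho = -0.85 (exact permutation p = 0.0107, BH 0.180), r = -0.65 (exact permutation p = 0.104, BH 0.455), and r = -0.49 without the 2 animals farthest from the median intake. SESN2 in LD* had rho = -0.81 (exact permutation p = 0.0180, BH 0.180), r = -0.70 (exact permutation p = 0.0516, BH 0.455), and r = -0.61 without those 2 animals. The 2 are LD replicates 1 and 2, at 1.24 and 0.47 g/kg, the only animals of cohort 4. They had the highest LD* levels of ASNS (103.7 and 109.5 TPM) and SESN2 (13.1 and 13.7 TPM), so intake and cohort are mixed in these relations. Without LD replicate 5, whose library stands apart, ASNS had rho = -0.77 (exact permutation p = 0.0492, BH 0.770) and r = -0.70 (exact permutation p = 0.0583, BH 0.298), and SESN2 rho = -0.72 (exact permutation p = 0.0770, BH 0.770) and r = -0.71 (exact permutation p = 0.0595, BH 0.298). No cohort held more than 4 animals of a drinking group, and no correlation is given over so few.

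Cohort was compared as a source of variation in its own right. None of the 8 genes differed among cohorts at an adjusted p of 0.05 in limma (0% of all genes), and 0 of the 8 did at an unadjusted p under 0.05, where 1140 of all genes did (8.36%). The lowest p among them was that of ATF6 (adjusted p = 0.540).

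The difference between HD* and controls was also compared between cohorts 5 and 7a, which held both groups. In cohort 7a PSAT1 was 173 and 267 TPM in the 2 controls and 120, 123, 152 and 131 TPM in the 4 HD* animals, while in cohort 5 it was 163, 201 and 155 TPM in controls and 175, 183, 163 and 207 TPM in HD*. All HD* animals were below both controls in cohort 7a (exact permutation p = 0.0667, the smallest possible), and in cohort 5 the groups overlapped (exact permutation p = 0.543). The log2 difference between the 2 cohort effects of PSAT1 was 0.78 (SE 0.26, 95% interval 0.21 to 1.35, adjusted p = 1.00). It was 0.70 after rescaling, where it was no longer at an unadjusted p under 0.05, and 0.47 without Control replicate 8, where it was not either. SESN2 was 12.5 and 13.5 TPM in the controls of cohort 7a and 11.9, 8.33, 8.09 and 7.79 TPM in its HD* animals, again without overlap (exact permutation p = 0.0667). In cohort 5 SESN2 averaged 9.73 TPM in controls and 11.0 TPM in HD* with overlap (exact permutation p = 0.371). The 3 LD* animals of cohort 7a averaged 9.89 TPM of SESN2, below both of its controls (exact permutation p = 0.20, where 0.10 is the smallest possible). The SESN2 difference between cohort effects was 0.65 (SE 0.28, 95% interval 0.042 to 1.26, adjusted p = 1.00). It was not at an unadjusted p under 0.05 without Control replicate 1 (0.59), 3 (0.62), 7 (0.71) or 8 (0.60), HD replicate 2 (0.56) or 4 (0.62), or VHD replicate 3 (0.61) or 4 (0.59). Leaving out the 4 libraries leaves 1 control and 2 HD* animals in cohort 7a, so no test is given for it, and the values were 0.58 for PSAT1 and 0.45 for SESN2. None of the 8 genes passed an adjusted p of 0.05 for this difference in limma (0% of all genes), and 2 of the 8 did at an unadjusted p under 0.05, with 294 of all genes (2.16%). Over all genes 14 passed the adjusted p without Control replicate 7 and 1 without Control replicate 2, none of them of the 8. Where 1 control of cohort 7a is left out, the other is assumed to vary like the rest. Cohort 7a had 2 controls, 1 of them Control replicate 8, and its HD* animals include VHD replicates 3 and 4, whose libraries also stand apart. The share of all genes without overlap within a cohort is not given here. Such a separation therefore does not set PSAT1, SESN2, ERN1, TRIB3 or DDIT3 apart from other genes.

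**Figure D3:**
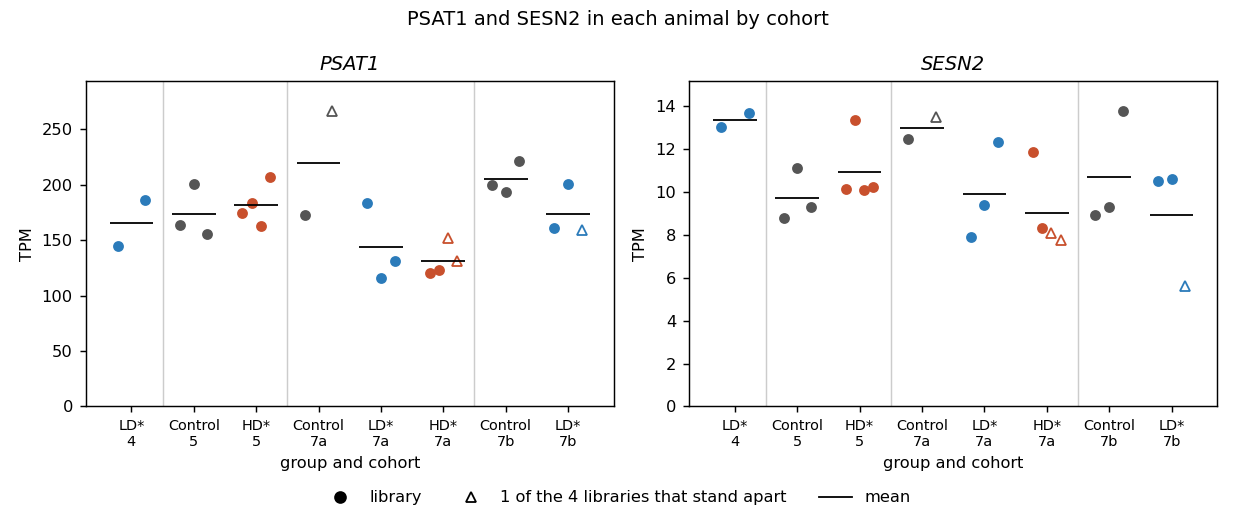
PSAT1 and SESN2 level in TPM (y axis, linear) by group and cohort (x axis), each point 1 animal, with the mean as a line and the 4 libraries that stand apart as open triangles. In cohort 7a the 4 HD* animals lie below both controls for PSAT1 and SESN2, and in cohort 5 the groups overlap. The share of all genes without overlap in cohort 7a is not given here.

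How the genes varied together was examined over the 20 libraries that do not stand apart, in 28 pairs of the 8 tested genes. ATF6 and XBP1, both of the unfolded protein response, had r = 0.68 (permutation p = 0.00103, BH 0.0288), rho = 0.58 (permutation p = 0.00791, BH 0.0673), and r = 0.62 without the 2 animals farthest from the median. Within cohorts the r of ATF6 and XBP1 was 0.78 in cohort 5 (n = 7) and 0.91 in cohort 7a (n = 6). ATF4 and its target CHAC1 had r = 0.64 (permutation p = 0.00214, BH 0.0300), rho = 0.60 (permutation p = 0.00595, BH 0.0673), r = 0.60 without the 2 farthest animals, and r of 0.68 and 0.50 in cohorts 5 and 7a. ATF4 and PSAT1 had r = 0.56 (permutation p = 0.0101, BH 0.0946) and rho = 0.61 (permutation p = 0.00441, BH 0.0673), r = 0.47 without the 2 farthest animals, and r of 0.84 and 0.55 in cohorts 5 and 7a. By r, 2 of the 28 pairs passed the BH adjustment, and by both r and rho 0 did. No share over pairs of all genes is given here, so this count does not set these genes apart from others. The median r was 0.12, 15 pairs were positive and 13 negative, and the lowest was ASNS with PSAT1 (r = -0.37, permutation p = 0.113, BH 0.525). Over the same 20 libraries, ATF6 and XBP1 both ran against the share of the 500 most abundant genes (r = -0.88 and -0.76). ATF4 and CHAC1 both ran against the striatal sum (r = -0.69 and -0.79). The part of library and tissue composition in the ATF6 and XBP1 pair and the ATF4 and CHAC1 pair was not tested.

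The same 20 libraries were used to relate each of the 8 genes to library composition and to the 7 marker sums, 64 relations in all, of which 15 passed the BH adjustment by r, 10 by rho and 9 by both. The share of such relations over all genes is not given here either. PSAT1 followed the astrocyte sum, with r = 0.83 (permutation p = 2e-05, BH 0.000640), rho = 0.87 (permutation p = 1e-05, BH 0.000640), r = 0.79 without the 2 farthest animals, and 0.78 and 0.83 within cohorts 5 and 7a. PSAT1 also followed the microglial sum, with r = 0.72 (permutation p = 0.00036, BH 0.00320), rho = 0.80 (permutation p = 4e-05, BH 0.000853), r = 0.74 without the 2 farthest animals, and 0.87 and 0.82 within the cohorts. With the striatal sum it ran the other way, at r = -0.65 (permutation p = 0.00138, BH 0.00883), rho = -0.77 (permutation p = 0.00018, BH 0.00288), r = -0.60 without the 2 farthest animals, and -0.77 and -0.70 within the cohorts. PSAT1 with the immediate early sum had r = -0.63 (permutation p = 0.00268, BH 0.0156), rho = -0.68 (permutation p = 0.00114, BH 0.00912), r = -0.54 without the 2 farthest animals, and -0.78 in cohort 5 but -0.25 in cohort 7a. The astrocyte sum had a lowest, median and highest value of 2563, 4223 and 8022 TPM in controls, 1991, 3663 and 5307 TPM in LD*, and 1769, 3585 and 6570 TPM in HD*. In limma 0 of 6 astrocyte markers were called between these groups, as were 0 of all 13637 genes (0%), so this count does not show whether they differed. The part of the astrocyte sum in the PSAT1 levels of drinkers was not tested. ATF4 followed the oligodendrocyte sum, with r = 0.77 (permutation p = 0.00016, BH 0.00224), rho = 0.75 (permutation p = 0.00026, BH 0.00333), r = 0.73 without the 2 farthest animals, and 0.80 and 0.54 within cohorts 5 and 7a. ATF4 also ran with the astrocyte sum, at r = 0.68 (permutation p = 0.00101, BH 0.00718), rho = 0.66 (permutation p = 0.00193, BH 0.0124), r = 0.52 without the 2 farthest animals, and 0.66 and 0.86 within the cohorts. Against the striatal sum ATF4 had r = -0.69 (permutation p = 0.0004, BH 0.00320), rho = -0.66 (permutation p = 0.00185, BH 0.0124), r = -0.57 without the 2 farthest animals, and -0.68 and -0.62 within the cohorts.

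ATF6 ran against the share held by the 500 most abundant genes even among these 20 libraries, with r = -0.88 (permutation p = 1e-05, the smallest the resamples can give, BH 0.000640), rho = -0.83 (permutation p = 3e-05, BH 0.000853), r = -0.80 without the 2 farthest animals, and -0.95 and -0.85 within cohorts 5 and 7a. ATF6 with the pan-neuronal sum had r = 0.73 (permutation p = 0.0002, BH 0.00224), rho = 0.72 (permutation p = 0.00035, BH 0.00373), r = 0.70 without the 2 farthest animals, and 0.98 in cohort 5 but 0.38 in cohort 7a. XBP1 with the same share had r = -0.76 (permutation p = 0.00021, BH 0.00224), rho = -0.57 (permutation p = 0.0108, BH 0.0576), and r = -0.42 without the 2 farthest animals, so that it rested largely on them, with -0.86 and -0.90 within the cohorts. Each of these within-cohort values includes 1 of the 2 farthest animals, VHD replicate 1 in cohort 5 and LD replicate 6 in cohort 7a. CHAC1 with the striatal sum had r = -0.79 (permutation p = 0.00014, BH 0.00224), rho = -0.57 (permutation p = 0.00961, BH 0.0559), and r = -0.45 without the 2 farthest animals, with -0.72 and -0.13 within the cohorts. Passing by r alone were also XBP1 with the pan-neuronal sum and CHAC1 with the oligodendrocyte, astrocyte and immediate early sums, and passing by rho alone was XBP1 with the immediate early sum. DDIT3, SESN2 and ASNS had no relation that passed the adjustment by either measure.

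**Figure D4:**
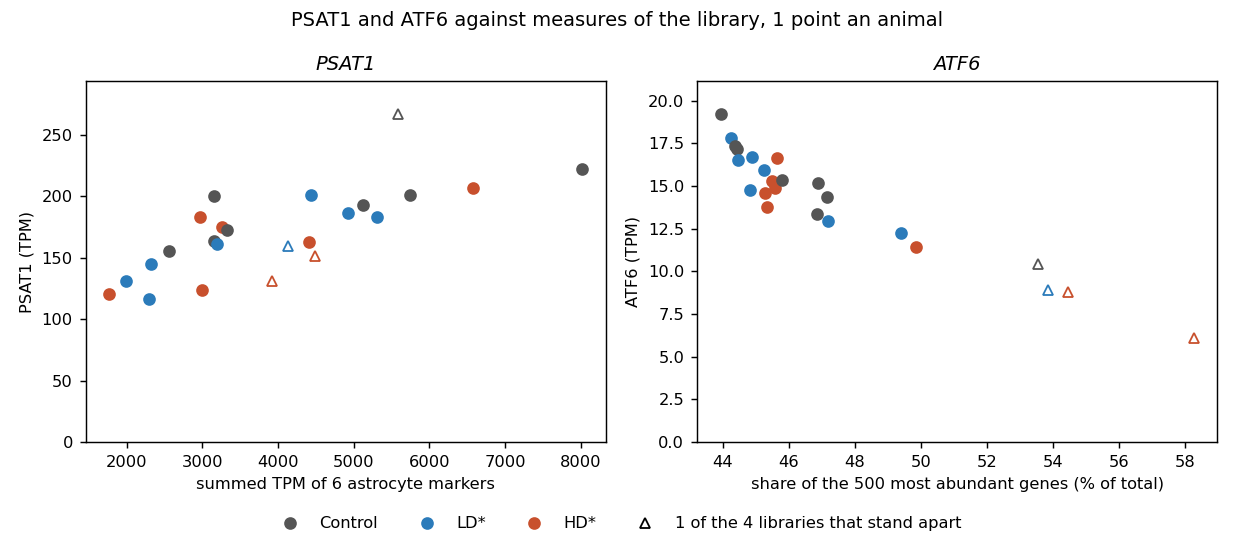
PSAT1 in TPM against the summed TPM of 6 astrocyte markers, and ATF6 in TPM against the percent of TPM held by the 500 most abundant genes, each point 1 animal, with groups in grey (Control), blue (LD*) and red (HD*) and the 4 libraries that stand apart as open triangles. Over the 20 other libraries, r is 0.83 for PSAT1 with the astrocyte sum (on the log2 scale) and -0.88 for ATF6 with the share of the 500 most abundant genes. The negative sign for ATF6 is partly fixed in advance, because levels have the same total in each library.

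The genes most like each one in pattern over the 24 animals were taken from those with a mean of at least 10 TPM, by r and as a description. ATF6 was most like CLCN3 (r = 0.98) and KPNA1, and XBP1 most like HNRNPH1 (r = 0.93), NAP1L2 and PPP2R2A. ASNS was most like SLC25A12 (r = 0.96), NRBP1 and XRCC6, a likeness that was 0.77 for SLC25A12 without the 4 libraries. PSAT1 was most like YAP1 (r = 0.90), SOX2 and CTNNA1, and ATF4 most like CHI3L1 (r = 0.84), GAB2 and PDLIM2. CHAC1 was most like USP35 (r = 0.93), CIAPIN1 and LRSAM1, and SESN2 most like BCL6 (r = 0.80), PCBP2 and H2AFY. DDIT3 had no close match, the nearest being EXOSC1 (r = 0.57), C5orf63 and GSTZ1. Without the 4 libraries, of these first matches only USP35 stayed first, for CHAC1 (r = 0.90). CLCN3 fell to place 4 for ATF6 (r = 0.94), YAP1 to 7 for PSAT1 (0.89) and HNRNPH1 to 9 for XBP1 (0.82). SLC25A12 fell to 13 for ASNS, EXOSC1 to 15 for DDIT3 (0.51), BCL6 to 18 for SESN2 (0.65) and CHI3L1 to 27 for ATF4 (0.83).

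Other genes of the same pathways were read from 6 lists, of which 100 genes were tested. In limma 0 of the 100 were called in HD* against controls, LD* against controls or HD* against LD*, and at an unadjusted p under 0.05 it was 6, 2 and 1, all lower, near the 5.68%, 2.84% and 1.08% of all genes. In VHD against HD, 17 were lower in VHD, where 11.4% of all genes were, and 1, DERL3, was higher, where 3.23% were. Their median log2 fold change in VHD against HD was -0.31, against -0.17 for all genes. Of 31 ER chaperone and degradation genes, whose control XBP1 and ATF6 share, 8 were lower and 1 was higher. In the same comparison the summed striatal markers were 10271 TPM in HD and 5218 TPM in VHD and the pan-neuronal markers 2612 and 1623 TPM, and their part in the levels of the pathway genes was not tested. HSPA5, which encodes the chaperone BiP, averaged 229.7 ± 22.3 TPM in HD and 119 ± 32.2 TPM in VHD (log2 fold change -0.97, SE 0.18, adjusted p = 0.00765). HYOU1, another ER chaperone gene, averaged 108 ± 3.79 and 53.2 ± 15.4 TPM (-1.05, SE 0.18, adjusted p = 0.00697), and SYVN1, CALR, HSP90B1, CRELD2, PDIA3 and P4HB were lower by -0.73, -0.65, -0.68, -0.62, -0.61 and -0.42 on the log2 scale. DERL3, an ER degradation gene, was 3.17 ± 0.435 TPM in HD and 7.87 ± 3.24 TPM in VHD (1.01, SE 0.28, adjusted p = 0.0332).

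Of 12 aminoacyl-tRNA synthetase genes, known as targets of ATF4, 6 were lower in VHD, AARS from 257 ± 27.6 TPM in HD to 128 ± 41.2 TPM in VHD (-1.04, SE 0.20, adjusted p = 0.00884), and EPRS, YARS, NARS, MARS and GARS by -0.79, -0.79, -0.75, -0.68 and -0.64. Of 18 amino acid transport and synthesis genes, 1 was lower, SLC7A1, an importer of cationic amino acids, at 59.4 ± 8.89 TPM in HD and 23.8 ± 4.00 TPM in VHD (-1.28, SE 0.17, adjusted p = 0.00363). By sign 10 of these 18 were higher and 8 lower, with a median of 0.061 against -0.17 for all genes, and 0.23 against 0.0058 after rescaling. SESN3, a relative of SESN2, was the 1 called of 12 other targets (-0.94, adjusted p = 0.0334), and ATF6B, a relative of ATF6, the 1 called of 12 stress factors and their processing enzymes (-0.53, adjusted p = 0.0338). In limma 0 of 16 eIF2 kinase, phosphatase and initiation factor genes were called, with 5 at an unadjusted p under 0.05, where 32.7% of all genes were, and after rescaling 1 was called. After rescaling 19 of the 100 genes were called, 1 higher and 18 lower, where 18.9% of all genes were. Of the 18 calls as deposited, 15 passed in the same direction, P4HB (-0.22, adjusted p = 0.238), CRELD2 (-0.42, adjusted p = 0.0865) and ATF6B (-0.32, adjusted p = 0.0531) did not. DNAJC3 (-0.45, adjusted p = 0.0484), SEL1L (-0.66, adjusted p = 0.0272), ERO1L (-0.61, adjusted p = 0.0270) and TARS (-0.44, adjusted p = 0.0277) were called only after rescaling, and are named here after their values were seen. The median of the 100 genes after rescaling was -0.11 against 0.0058 for all genes. Without the 4 libraries, with both VHD animals left being of cohort 5, 4 of the 100 genes were called, near the 4.44% of all genes. Each was among the 18, HSPA5 (-0.68, adjusted p = 0.0427), HYOU1 (-0.71, adjusted p = 0.0289), SLC7A1 (-1.24, adjusted p = 0.0262) and AARS (-0.68, adjusted p = 0.0476). The rest of the 18 kept their direction without passing. Among ER genes these were CRELD2 (-0.58), SYVN1 (-0.55), CALR (-0.41), HSP90B1 (-0.41), PDIA3 (-0.36), P4HB (-0.33) and DERL3 (0.88). The others were SESN3 (-0.53), NARS (-0.46), YARS (-0.46), GARS (-0.38), EPRS (-0.38), ATF6B (-0.32) and MARS (-0.31). In the fit of all 4 groups none passed, as for all genes.

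Among 20 pathway genes listed by name, levels ran from 3.35 TPM for ATF3 to 374 TPM for HSP90B1. The serine synthesis enzymes next to PSAT1 were PHGDH, at 151 ± 46.3 TPM in controls, 140 ± 23.8 TPM in LD* and 126 ± 14.9 TPM in HD*, and PSPH, at 86.0 ± 10.2, 75.0 ± 11.7 and 80.1 ± 8.14 TPM. Against controls, PHGDH differed by -0.22 in HD* and -0.083 in LD*, and PSPH by -0.099 and -0.20, of which only PSPH in LD* was at an unadjusted p under 0.05 (adjusted p = 1.00). After rescaling PHGDH was at -0.093 in HD* and -0.046 in LD*, and PSPH, with its direction in HD* reversed, at 0.0265 and -0.16. SLC7A11, the cystine importer induced by ATF4, was 9.22 ± 2.72 TPM in controls, 6.26 ± 1.99 TPM in LD* and 7.76 ± 4.54 TPM in HD*, with a log2 fold change in LD* of -0.49 (adjusted p = 1.00). Those 2 were the only ones of the 20 below an unadjusted p of 0.05 in LD* against controls, where 2.84% of all genes were, and 0 of the 20 were in HD* against controls (5.68% of all genes) or HD* against LD* (1.08%) in limma. In HD* against controls their log2 fold changes ran from -0.34 for EIF2AK2, the gene of the kinase PKR, to 0.058 for ATF3, and after rescaling from -0.25 to 0.16 for the same 2 genes. In LD* against controls SLC7A11 was at -0.46 after rescaling, and neither it nor PSPH was then at an unadjusted p under 0.05.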

How the data were processed

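RNA from the NAcc core of 24 animals was sequenced after poly(A) selection. The authors aligned reads with STAR 2.5.2b to the MacaM genome, counted them per gene with HTSeq 0.6.1p1, and deposited 1 table, named as normalized counts, whose columns each sum to about 1000000 and were therefore taken as TPM values. How counts were converted, and with which gene lengths, is not given in the sources used here, and the read depth of single libraries is unknown, only an average over samples being stated. Of the symbols, 27 look like dates, and none is one of the genes described. The 13637 genes averaging 1 TPM or more were fitted on log2(TPM + 1) with limma 3.58.1 (trended variances, Benjamini-Hochberg adjustment) in R 4.3.3. The 3 pooled groups entered 1 fit, HD and VHD a fit of 8 animals, intake a fit of the 16 drinkers with drinking group, cohort an F test, and the cohort difference a fit of cohorts 5 and 7a. Fold changes on this scale understate those of low genes. The scripts were tested on simulated data. ERN1 and TRIB3 were tested with exact 2-sided permutation tests in Python 3.11.15 with scipy 1.17.1, and correlations over 20 libraries with 100000 permutations. Within a group, a value far from the rest was found with Dixon's test.

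The genes, the 6 pathway lists and the 7 marker lists were chosen with earlier results of these data known. Named beyond the 10 genes are 20 listed pathway genes, any list gene past an adjusted p of 0.05, and the 3 genes most like each tested one, and some of the genes this rule or the marker lists name are not reported here. Alternatives were pseudocounts of 0.1 and 8, no filter or a minimum of 10 TPM, rescaling by a trimmed mean of M-values (30% of M and 5% of A trimmed at each end), cohort as a covariate, array weights, other sets of groups or cohorts in the fit, and leaving out each animal.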

Additional observations from a re-analysis of the deposited data

Results flagged for a closer look

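Each gene's highest and lowest animal was compared with the rest of its group in 50 sets of animals, and 3 lay far from the others, where chance gives about 1 in 20 (2.5 of 50). CHAC1 in Control replicate 6 was 24.1 TPM, with the other controls at 6.54 to 12.2 TPM. TRIB3 in LD replicate 4 was 0.413 TPM, with the other LD* animals at 0 to 0.152 TPM, and TRIB3 in HD replicate 1 was 0.223 TPM, with the other HD* animals at 0 to 0.102 TPM. Both TRIB3 values are well under 1 TPM. The CHAC1 animal also had the lowest summed striatal markers, 775 TPM, and the part of its tissue composition in the CHAC1 level was not tested.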

How the results depend on the processing

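For the 8 tested genes a call is an adjusted p under 0.05, and for ERN1 and TRIB3 an unadjusted exact permutation p under 0.05, a weaker rule. After BH adjustment the exact permutation p of ERN1 in HD* against controls was 0.224. Leaving out 1 animal kept direction and call for 941 values, reversed 35, ended the call of ERN1 in HD* against controls 4 times and added a call to 4. Other settings kept 328, reversed 31, ended 1 call, of ERN1 in HD* against controls (-0.11 without the 4 libraries, exact permutation p = 0.104), and added a call to 4, all in VHD against HD with array weights. At an unadjusted p under 0.05, leaving out 1 animal ended 40 calls, those of ERN1 included, and added 4, and other settings ended 20, that of ERN1 included, and added 4, among ERN1, PSAT1 and ATF6 in the group comparisons, XBP1, ATF6, ASNS, CHAC1 and SESN2 in VHD against HD, intake slopes and the cohort differences of PSAT1 and SESN2. Values are log2 fold changes and the cause was not tested. In HD* against controls, rescaling reversed ATF4 (0.077), XBP1 (0.057) and ASNS (0.063), array weights reversed XBP1 (0.0013), SESN2 (0.075) and ASNS (0.10), and cohorts 5 and 7a alone reversed ASNS (0.0057). In LD* against controls, array weights reversed CHAC1 (0.027) and SESN2 (0.10), and cohorts 7a and 7b alone reversed ASNS (-0.0044). In HD* against LD*, rescaling reversed DDIT3 (0.016), SESN2 (0.052) and PSAT1 (0.053), cohort as a covariate SESN2 (0.044) and PSAT1 (0.0205), and array weights PSAT1 (0.061). In VHD against HD, rescaling reversed DDIT3 (0.15) and ERN1 (0.046), and the number of genes called was 1997, but 7613 with array weights and 0 with 4 groups in the fit. Intake slopes reversed without cohort 4 for DDIT3 (-0.16) and PSAT1 (0.15), and after rescaling for PSAT1 (0.091).

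Leaving out the 4 libraries was chosen after seeing the data. In VHD against HD it left 2 VHD animals, both of cohort 5, against HD animals of cohorts 5 and 7a. It reversed SESN2 (0.021) and ASNS (0.12) in HD* against controls, SESN2 (0.065) in LD* against controls, PSAT1 (0.0081) in HD* against LD*, CHAC1 (0.35) and ERN1 (0.26) in VHD against HD, the CHAC1 intake slope (0.036), and, with 1 control left in cohort 7a, the cohort difference of XBP1 (0.049), CHAC1 (-0.21) and ASNS (-0.11), and left 606 genes called in VHD against HD.

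Leaving out each animal in turn gave ranges that cross 0. In HD* against controls these were -0.14 to 0.017 for XBP1, -0.0009 to 0.068 for DDIT3 and -0.12 to 0.071 for ASNS. In LD* against controls they were -0.15 to 0.0081 for ATF6, -0.0093 to 0.11 for XBP1 and -0.14 to 0.0215 for SESN2. In HD* against LD* they were -0.14 to 0.0275 for SESN2 and -0.099 to 0.015 for PSAT1. In VHD against HD they were -0.12 to 0.012 for DDIT3 and -0.63 to 0.032 for CHAC1, with 476 to 4651 genes called, and -0.13 to 0.093 for ERN1. TRIB3 ran from -0.082 to 0.0024 in LD* against controls and from -0.078 to 9.8e-05 in HD* against LD*. Intake slopes ran from -0.13 to 0.16 for DDIT3 and -0.090 to 0.16 for PSAT1, with 0 to 1 genes called, and cohort differences from -0.21 to 0.48 for ATF6, -0.35 to 0.30 for XBP1 and -0.062 to 0.45 for ASNS, with 0 to 14 genes called. For ERN1, TRIB3, the intake slopes and the cohort differences, leaving out 1 animal was chosen after seeing the data, as was rescaling for ERN1 and TRIB3. No paired analysis was possible because the animals of different groups are unrelated and their numbers only name them.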
